A study of Mus musculus with 6 samples.

Results

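*Serpina3n*, *A2m*, *Timp1*, *Timp2*, *Timp3*, *Timp4*, *Serpine2*, *Serpinf1* and *Cst3* belong to families of secreted protease inhibitors, and their RNA was followed in astrocytes isolated from the hippocampus after microglial ablation. These 9 genes were looked up by name among the 24421 genes listed, and all 9 were found. They were chosen with their PBS and DT values in these same libraries known, so the differences between the groups are described below and not tested in their own right. In the DT libraries, the RNA of *Serpina3n*, *A2m* and *Timp1* was at least 3.46 times as high in the lowest library as in the highest PBS library, or had no read in any PBS library. The RNA of the other 6 genes, which held most of the RNA of the 9 in both groups, differed far less.

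Secreted inhibitors limit the activity of proteases outside the cell. Serpins present a loop to a serine protease and trap it in a covalent complex, alpha-2-macroglobulin encloses proteases of many classes in a cage, cystatins block cysteine cathepsins, and tissue inhibitors of metalloproteinases (TIMPs) bind the active site of matrix metalloproteinases and related ADAM proteases. Complexes of serpins or alpha-2-macroglobulin with a protease are cleared by receptors such as LRP1. In the brain, astrocytes are a main source of such inhibitors, and *Serpina3n* is widely used as a marker of reactive astrocytes.

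All mice were adult C57BL/6 mice homozygous for *Siglech* dtr (Siglechdtr/dtr), an allele that puts the diphtheria toxin receptor under the control of a microglial gene, so the control libraries carry it too. One group received PBS and the other diphtheria toxin (DT) at 50 µg/kg, both intraperitoneally, and 2 days later astrocytes were taken by magnetic-activated cell sorting (MACS), to ask how their RNA differs once microglia are ablated. Before the sort with beads against the astrocyte antigen ACSA-2, anti-CD11b beads were used to remove microglia, a step that would also bind other CD11b+ macrophages. Each group has 3 libraries from independent experiments, each made from a pool of 2 mice, so the spread given is between pools. Mice without the allele, or given DT without it, are not among these libraries, and in homozygotes the allele also lowers *Siglech* itself, as the study's text states.

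The libraries held 21704891 to 32933975 reads in genes, and 3 reads correspond to 0.0904 to 0.138 CPM, reads relative to the scaled depth of the library. The astrocyte label was checked with 12 markers, led by *Slc1a2*, the main glutamate transporter, at 9441 TPM after PBS, a read count corrected for transcript length and library depth. Summed astrocyte markers were at 59757 to 64880 CPM in the PBS libraries and 60618 to 67468 CPM in the DT libraries, with none of the 12 past the threshold (an adjusted p of 0.05 from limma, over the 15137 genes whose mean reached 0.5 CPM). Microglial markers summed to 277 to 317 CPM after PBS and 160 to 186 CPM after DT, with 8 of 17 lower, and *Siglech* was at 0 in all DT libraries. Markers of border macrophages summed to 40.4 to 61.3 CPM after PBS and 98.0 to 112 CPM after DT, with 3 of the 8 tested higher (*Mrc1*, *Lyve1* and *F13a1*). Summed choroid plexus markers spread from 62.2 to 896 CPM after PBS and from 582 to 1568 CPM after DT, and ependymal markers were at 266 to 329 CPM and 346 to 584 CPM, with no gene of either list past the threshold. None of the markers of these last 3 lists was at 0 throughout a group. Endothelial (1049 to 1642 and 869 to 1054 CPM), pericyte and smooth muscle (1000.4 to 1513 and 1162 to 1514 CPM), meningeal fibroblast (297 to 361 and 298 to 311 CPM) and oligodendrocyte markers (404 to 517 and 359 to 444 CPM) had no gene past it either. Short of the threshold, all 12 endothelial markers had negative log2 fold changes (median -0.39). All 11 choroid plexus (median 1.51) and all 10 ependymal markers (median 0.52) had positive ones. The pericyte and smooth muscle, meningeal fibroblast and oligodendrocyte lists held both signs. In these bulk libraries, fewer cells of a type and less RNA per cell cannot be told apart, and the part of other cell types in the values below was not tested. In sections of hippocampal CA1, the study counted fewer live microglia 2 days after DT, with perivascular macrophages and astrocytes unchanged in number. Those counts are of tissue and not of the sorted cells.

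*Cst3*, which encodes cystatin C, an inhibitor of lysosomal cysteine cathepsins that have left the cell, had the highest level of the 9 genes on the per-length scale of TPM. It stood at 8180 ± 498 TPM after PBS and 8381 ± 163 TPM after DT (mean ± SD, n = 3 each), ranking 6 and 7 among the genes tested. Below it in the PBS group came *Serpine2*, *Timp3*, *Timp4*, *Timp2*, *Serpinf1*, *Serpina3n*, *A2m* and *Timp1* in that order. Only *Serpinf1* and *Serpina3n* had overlapping PBS libraries, and every other neighbouring pair was apart. In the DT group *Serpina3n* stood beside *Timp4*, whose libraries it overlapped, and *A2m* stood above *Serpinf1*. The other neighbours in the DT order were apart.

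**Figure D1:**
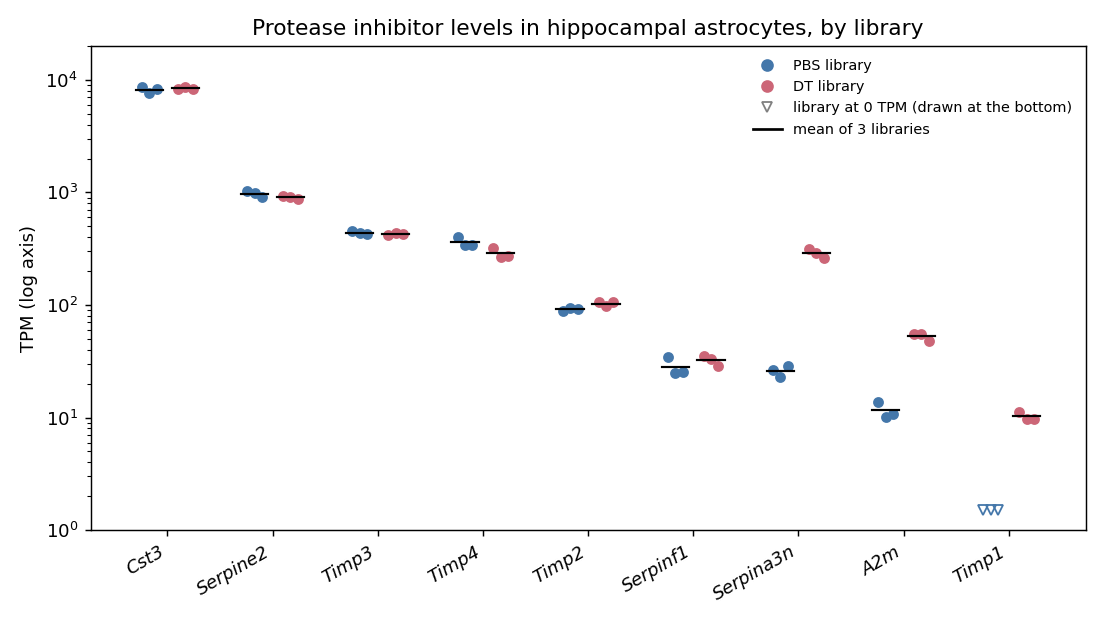
TPM (vertical log axis) of the 9 inhibitor genes in each of 3 PBS and 3 DT libraries, 1 point per library, with a line at the mean of 3 libraries and open triangles for libraries at 0 TPM. *Serpina3n* moves from the level of *Serpinf1* to that of *Timp4* (287 TPM after DT), while *Cst3*, *Serpine2* and *Timp3* lie at about the same height in both groups.

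*Serpina3n* encodes a serpin of the antichymotrypsin family that inhibits serine proteases of the neutrophil elastase, cathepsin G and granzyme B kind. It lies on chromosome 12 of mm10 from 104406729 to 104414329 on the plus strand. Its RNA was at 26.3, 23.0 and 28.9 TPM in PBS libraries 1, 2 and 3. In DT libraries 1, 2 and 3 it was at 316, 287 and 261 TPM. The groups were widely separated, and the lowest DT library was 9.03 times as high as the highest PBS library. The means were 26.1 ± 2.93 and 288 ± 27.6 TPM (SD, n = 3 each), an 11.0-fold difference that corresponds to 3.45 on the scale of log2(CPM + 0.1) (SE 0.11). With 415 to 535 reads per PBS library and 4194 to 6137 reads per DT library, counting error is smaller than the spread between libraries. The gene moved from percentile 54.8 to percentile 97.2 of the tested genes by TPM.

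The mouse *Serpina3* cluster holds many near copies of *Serpina3n*, so reads could be shared between them. Of the 10 other cluster genes listed, 7 had no read in any library. *Serpina3g* had at most 8 reads in a PBS library and 0 in the DT libraries, which allows up to 3 reads in each. *Serpina3c* had at most 3 and *Serpina3i* at most 12 reads in a DT library, and neither had a read after PBS. None of the 10 passed the filter on low values. Of the 2015 windows of 50 bases in the 2064-base *Serpina3n* transcript, 136 (6.75%) occurred unchanged in at least 1 of 9 of these paralogs, with the most, 51, in *Serpina3g*. The reads of the listed cluster genes were thus assigned almost wholly to *Serpina3n* in both groups, and the shared windows cover a small share of it.

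*A2m* encodes alpha-2-macroglobulin and lies on chromosome 6 from 121635376 to 121679227 on the plus strand. It was at 13.8, 10.1 and 10.8 TPM in PBS libraries 1, 2 and 3. In DT libraries 1, 2 and 3 it was at 55.4, 55.2 and 47.6 TPM. All DT libraries lay above all PBS libraries, the lowest of them 3.46 times as high as the highest PBS library. The means were 11.6 ± 1.93 and 52.7 ± 4.47 TPM (SD, n = 3 each), a 4.56-fold difference and 2.18 on the log2 scale (SE 0.13). The gene moved from percentile 33.6 to percentile 75.0 of the tested genes. Of 5 other genes picked from the alpha-2-macroglobulin family, which are not the whole family, 4 were listed. Of these, 1 passed the filter, *Cd109*, a membrane-anchored member. *Cd109* went from 11.1 ± 1.04 to 17.3 ± 4.61 TPM (mean ± SD, n = 3 each), which did not pass the threshold (log2 fold change 0.59, SE 0.17, adjusted p = 0.269 with limma). *Pzp*, the close relative of *A2m*, had at most 3 reads in any library.

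*Timp1* encodes the inducible member of the TIMP family and lies on chromosome X from 20870166 to 20874735 on the plus strand. No read was assigned to it in any of the 3 PBS libraries, which allows up to 3 reads in each, or 0.138, 0.0904 and 0.138 CPM. In DT libraries 1, 2 and 3 it had 81, 89 and 68 reads, or 3.54, 2.89 and 2.97 CPM. Every DT library was therefore above the level that 0 reads allow in a PBS library. Against a floor of 3 reads per PBS library, *Timp1* was at least 25.6-fold higher after DT (4.68 on the log2 scale). Its DT level, 10.2 ± 0.90 TPM (SD, n = 3), was still the lowest of the 9 genes and stood at percentile 30.4 of the genes tested.

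**Figure D2:**
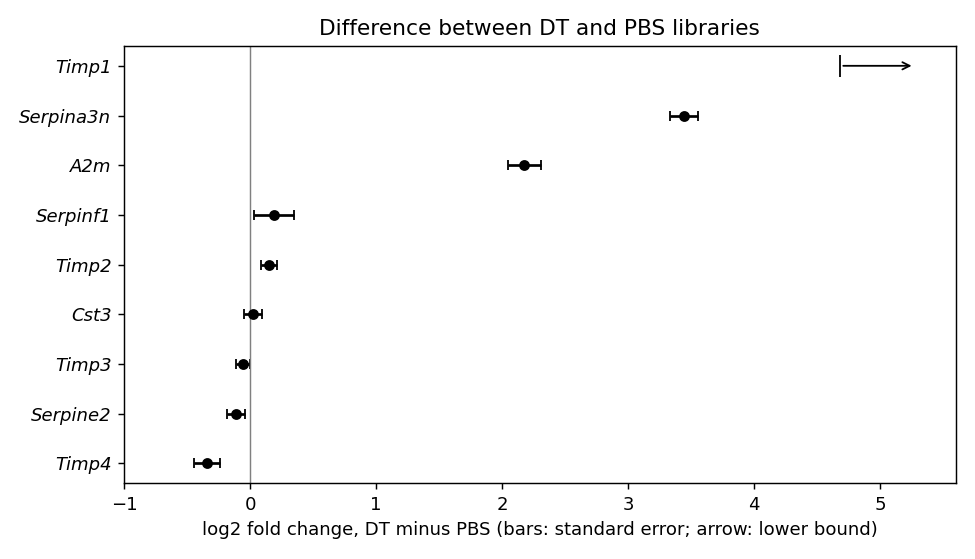
Difference between DT and PBS libraries for the 9 genes, as the log2 fold change on the scale of log2(CPM + 0.1) (horizontal axis), with points at the fitted value and bars for the standard error. *Serpina3n* (3.45) and *A2m* (2.18) stand apart from 6 genes between -0.34 and 0.19, and the arrow for *Timp1* starts at its lower bound of 4.68.

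The 3 other TIMP genes were abundant before DT and shifted little. *Timp3*, whose protein binds to the extracellular matrix and also inhibits ADAM17, lies on chromosome 10 from 86300372 to 86349506 on the plus strand. It was at 457, 433 and 429 TPM in PBS libraries 1, 2 and 3 and at 418, 433 and 428 TPM in the DT libraries in the same order. These ranges overlapped in TPM and were narrowly apart in CPM, with a log2 fold change of -0.06 (SE 0.06). *Timp4*, the TIMP with a narrow pattern of tissues that includes the brain, lies on chromosome 6, minus strand, at positions 115241892 to 115252205. It was at 403, 341 and 338 TPM in PBS libraries 1, 2 and 3. In the DT libraries it was at 318, 269 and 273 TPM, all below the PBS libraries. The means were 361 ± 37.0 and 287 ± 27.0 TPM (SD, n = 3 each), the largest decrease of the 9 genes (log2 fold change -0.34, SE 0.10). *Timp2*, whose protein both inhibits MMP2 and takes part in its activation by MMP14, lies on chromosome 11, minus strand, at positions 118301069 to 118355740. It was at 88.0, 94.6 and 92.8 TPM in PBS libraries 1, 2 and 3 and at 105, 98.0 and 105 TPM in the DT libraries. The groups did not overlap, but their nearest libraries differed by a factor of 1.04, and the log2 fold change was 0.15 (SE 0.06).

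Summed over the 4 TIMP genes, the level was 892 ± 48.8 TPM after PBS and 826 ± 23.1 TPM after DT (mean ± SD, n = 3 each), and in TPM each DT library was below each PBS library (at most 853 against at least 860 TPM). In CPM the summed values of the groups overlapped. *Timp3* made up 49.3% of this sum after PBS and 51.7% after DT. The share of *Timp4* was 40.4% and 34.7%, and that of *Timp2* was 10.3% and 12.5%. *Timp1*, the gene with the largest relative difference, supplied 1.24% of the TIMP RNA after DT. The increase of *Timp1* by 10.2 TPM was smaller than the decrease of *Timp4*, whose means differed by -74.0 TPM.

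Among the serpins, *Serpine2* encodes protease nexin-1, an inhibitor of thrombin and plasminogen activators that glia secrete. It lies on chromosome 1, minus strand, at positions 79794197 to 79861180. Its level was 1038, 978 and 903 TPM in PBS libraries 1, 2 and 3 and 926, 917 and 878 TPM in the DT libraries, which overlapped (log2 fold change -0.11, SE 0.07). *Serpinf1* encodes PEDF, a serpin that does not inhibit proteases and is known as a neurotrophic and anti-angiogenic factor. It lies on chromosome 11, minus strand, at positions 75409769 to 75422701. Its level was 34.7, 24.9 and 25.3 TPM in PBS libraries 1, 2 and 3 and 35.0, 33.2 and 28.8 TPM in the DT libraries, where PBS library 1 stood with the DT libraries (log2 fold change 0.19, SE 0.16). *Cst3* (chromosome 2, minus strand, positions 148871722 to 148875692) was at 8612, 7635 and 8293 TPM in PBS libraries 1, 2 and 3. In the DT libraries it was at 8275, 8569 and 8298 TPM, within the PBS range (log2 fold change 0.02, SE 0.07).

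Together the 3 serpins among the 9 genes reached 1028 ± 71.2 TPM in the PBS group and 1227 ± 55.0 TPM in the DT group (mean ± SD, n = 3 each). *Serpine2* held 94.7% of this sum after PBS and 73.9% after DT. The share of *Serpina3n* was 2.55% ± 0.41 (SD, n = 3) after PBS and 23.4% ± 1.23 (SD, n = 3) after DT, and *Serpinf1* held 2.74% and 2.63%. Over all 9 genes the sum was 10111 ± 567 and 10487 ± 173 TPM (SD, n = 3 each), of which *Cst3* made up 80.9% and 79.9%. The share of *Serpina3n* in that sum was 0.258% and 2.74%. The composition of the inhibitor RNA thus differed between the groups mainly in *Serpina3n*, while its total was within the spread of the PBS libraries.

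**Figure D3:**
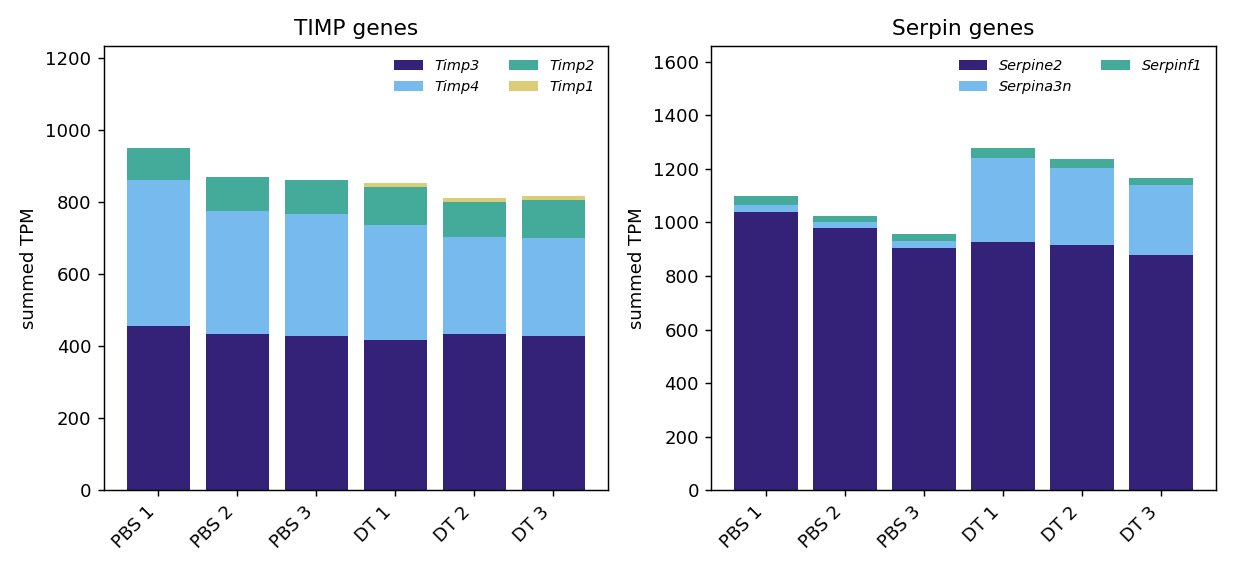
Summed TPM (vertical axes, from 0) of the 4 TIMP genes (left) and of the 3 serpin genes (right) in each PBS and DT library, with each gene as a segment of the bar. *Serpina3n* makes up 22.3% to 24.7% of the serpin bar in DT libraries against 2.24% to 3.02% in PBS libraries, and *Timp1* is a thin cap on the TIMP bar of the DT libraries.

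As a description of genes chosen on this contrast, 3 of the 9 (*Serpina3n*, *A2m* and *Timp1*) were on the list of genes called higher in the limma fit over all 15137 genes tested, which held 0.555% of them. All 9 passed the filter on low values, *Timp1* only through its DT libraries. None of the 9 was called lower in this fit, where the background was 0.159%. In CPM, 4 of the 9 had DT libraries all above the PBS libraries (background 8.75%) and 2, *Timp3* and *Timp4*, had them all below (background 7.57%). In TPM these counts were 4 and 1, and the shares over all genes were not computed on that scale. The choice of the 9 genes used the same values, so nothing is read from these shares. The median log2 fold change of the 9 was 0.15, and that of all tested genes was -0.01. Within the DT group, library 1 had the highest CPM for each of the 9 genes, but in TPM it was the lowest of the DT libraries for *Timp3* and *Cst3*. Within the PBS group, library 1 was highest in CPM for 6 of the 8 genes with reads and library 2 lowest for 6 of the 8.

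The 3 TIMP genes that lie inside synapsin genes, *Timp1*, *Timp3* and *Timp4*, share their loci with genes transcribed from the opposite strand. *Timp1* lies in intron 5 of *Syn1* and *Timp3* in intron 6 of *Syn3*, counted along the longest coding transcript of the host, while 1 exon of *Syn2* falls within the span of *Timp4*. Over all annotated transcripts, 1 exon of *Syn3* overlaps exons of *Timp3* and 2 exons of *Syn2* overlap exons of *Timp4*. No exon of *Syn1* overlaps those of *Timp1*. The libraries were made with a stranded kit and mapped with strand information. Strand does not separate *Timp2* from *Cep295nl*, which overlaps it on the same strand and has no values here. *Timp4* also lies within *Gm17482* on the opposite strand, again without values. The synapsins, presynaptic vesicle proteins of neurons, were not past the threshold in any of the 3 loci (limma, adjusted p = 0.615 for *Syn1*, 0.973 for *Syn3* and 0.836 for *Syn2*). Their log2 fold changes were 0.30 (SE 0.18), -0.03 (SE 0.22) and -0.06 (SE 0.08). At *Timp1*, *Syn1* was read at 13.7 to 16.9 CPM in the PBS libraries, in which *Timp1* had no read. Neuronal markers summed to 283 to 344 CPM after PBS and 249 to 417 CPM after DT, with none called.

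**Figure D4:**
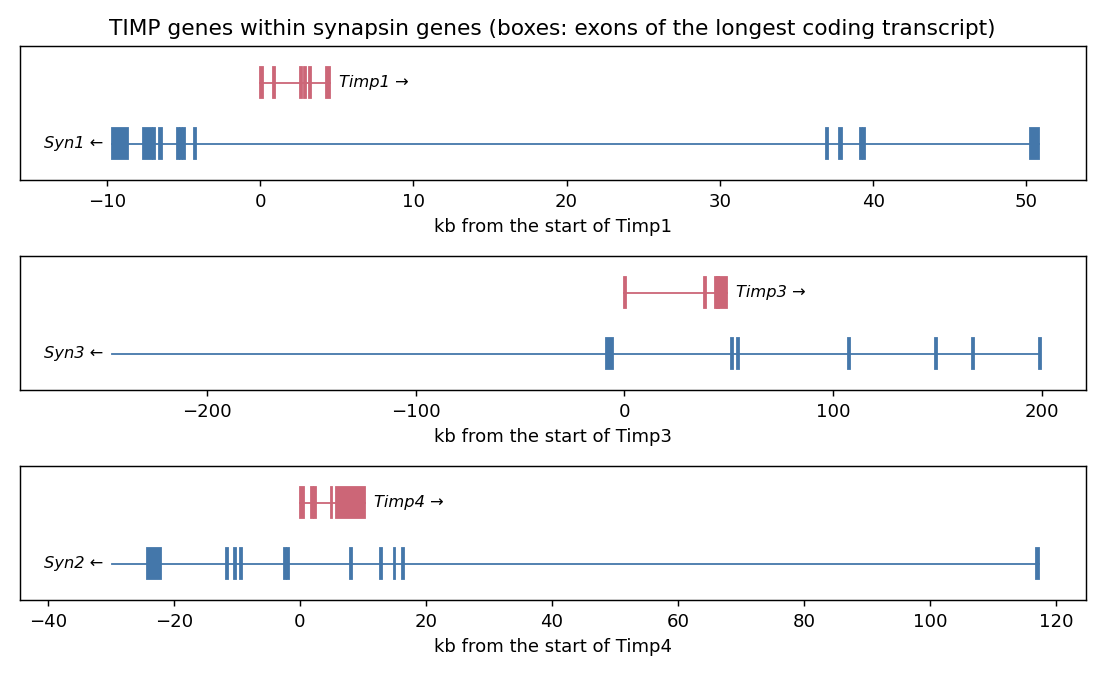
Maps of the *Timp1*, *Timp3* and *Timp4* loci, each in kb from the start of the TIMP gene (horizontal axes), with boxes for exons of the longest coding transcript, a line for the whole gene span and arrows for the direction of transcription. Each TIMP gene (red) lies within the span of a synapsin gene (blue) on the other strand, and a *Syn2* exon falls inside *Timp4*.

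Promoter windows of RefSeq on GRCm38.p6, from 250 bases before to 50 bases after a gene's start, matched 8 of the 9 genes, all but *A2m*. The RefSeq start of *Serpina3n* lies before the gene start given above, and the end of its window is not wholly within the longest GENCODE transcript, as the ends of the other windows are. The RefSeq starts of *Serpine2*, *Timp2*, *Cst3*, *Serpinf1* and *Timp3* lie inside the gene spans given above. For *Serpine2* and *Timp2* the whole window does, so these windows do not lie before the GENCODE gene start. The windows of *Serpina3n* and *Timp1*, which differed most between the groups, are printed here beside those of *Timp3*, which differed little, and *Timp4*, which was lower, with every CG dinucleotide in capitals. They lie at chr12:104406458-104406757 (plus strand), chrX:20869916-20870215 (plus strand), chr10:86300162-86300461 (plus strand) and chr6:115252156-115252455 (minus strand), in that order.
Serpina3n: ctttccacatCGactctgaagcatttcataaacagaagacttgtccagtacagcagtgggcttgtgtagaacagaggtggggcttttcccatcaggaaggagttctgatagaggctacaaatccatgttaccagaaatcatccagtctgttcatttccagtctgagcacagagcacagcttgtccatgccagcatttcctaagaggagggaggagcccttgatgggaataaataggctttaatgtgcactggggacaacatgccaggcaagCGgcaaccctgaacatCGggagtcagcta
Timp1: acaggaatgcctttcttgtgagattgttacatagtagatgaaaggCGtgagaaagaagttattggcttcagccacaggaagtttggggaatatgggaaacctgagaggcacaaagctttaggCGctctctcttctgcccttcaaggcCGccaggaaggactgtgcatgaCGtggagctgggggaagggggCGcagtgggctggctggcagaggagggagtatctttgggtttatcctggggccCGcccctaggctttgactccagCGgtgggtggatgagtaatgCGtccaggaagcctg
Timp3: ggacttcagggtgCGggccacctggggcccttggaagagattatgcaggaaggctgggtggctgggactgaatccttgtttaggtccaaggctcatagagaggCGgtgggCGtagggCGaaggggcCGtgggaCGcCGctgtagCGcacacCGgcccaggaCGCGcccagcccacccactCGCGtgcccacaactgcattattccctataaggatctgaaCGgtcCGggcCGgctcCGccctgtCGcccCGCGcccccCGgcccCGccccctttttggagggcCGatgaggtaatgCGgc
Timp4: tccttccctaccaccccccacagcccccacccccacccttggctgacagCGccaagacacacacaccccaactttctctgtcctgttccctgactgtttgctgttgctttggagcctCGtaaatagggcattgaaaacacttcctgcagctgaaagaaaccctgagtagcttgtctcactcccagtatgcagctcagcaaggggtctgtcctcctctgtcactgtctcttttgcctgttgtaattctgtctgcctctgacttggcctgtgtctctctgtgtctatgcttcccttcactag

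The windows differed widely in base composition. The *Serpina3n* window had 3 CG dinucleotides and a GC content of 48.7%, and that of *Timp1* had 8 and 55.0%. *Timp3* had 24 CG dinucleotides and *Timp4* had 2. Among those not printed, *Serpine2* had 41, *Timp2* 25, *Cst3* 13 and *Serpinf1* 3, and the median over all 32851 promoters was 7. Motifs of factors active in inflammation were searched on both strands: TTCNNNGAA (STAT), TGANTCA (AP-1), TTGCNNAA (C/EBP), the NF-kappa B consensus and, as a core element, TATAAA. None of the 8 windows held any of them. Of all promoters, 8.30% held the STAT, 7.81% the AP-1, 10.8% the C/EBP, 5.80% the NF-kappa B and 13.6% the TATAAA letters, and the absence of a match says only that these letters are not in these windows.

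Patterns across the 6 libraries were compared as the root mean square difference of centred log2 CPM, against 11790 genes at or above a mean of 5 CPM. Nearest to *Serpina3n* were *Lyve1*, a marker of border macrophages and lymphatic endothelium (difference 0.275), *Cxcl5*, a chemokine (0.561), and *Aspg*, an asparaginase (0.618). *Lyve1* was at 1.04 ± 0.34 CPM after PBS and 10.5 ± 2.80 CPM after DT (mean ± SD, n = 3 each), against 18.6 and 203 CPM for *Serpina3n*. Nearest to *A2m* were the complement gene *C4a* (0.200), *Cxcl5* (0.229) and *Gfap*, the astrocyte intermediate filament gene (0.245). For *Timp1* the nearest gene was *Serpina3n* (0.789), followed by *Lyve1* (0.964) and *Gm4724* (1.12). On this scale the PBS values of *Timp1* are the pseudocount alone. *Timp1*, at 0 CPM after PBS and 3.13 CPM after DT, was itself below the mean of 5 CPM required of the genes searched. Genes below that mean, such as the serpin gene *Serpinf2* (0.09 CPM after PBS and 5.53 CPM after DT), were not searched. Each distance includes the difference between DT and PBS. The 9 genes were chosen with that difference known, so nothing is read from these neighbours.

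Of 7 tested genes among 22 other genes of the serpin family, 1 passed the threshold. This was *Serpinf2*, which encodes alpha-2-antiplasmin, the main inhibitor of plasmin, and lies 9030 bases from *Serpinf1* on the same strand of chromosome 11 (75431732 to 75439591). It had 0, 9 and 0 reads in PBS libraries 1, 2 and 3 and 123 to 151 reads in the DT libraries. Its level was 0, 0.36 and 0 TPM after PBS and 8.67, 6.35 and 7.25 TPM after DT, so the groups were far apart while its neighbour *Serpinf1* overlapped between them. The log2 fold change was 5.17 (SE 0.54, adjusted p = 0.00389 with limma), and since most PBS values are 0, the gene passed the filter on low values only through its DT libraries and the fold change ranged from 2.58 to 5.83 over 16 alternative analyses, the pseudocount among them. The most abundant other serpins, *Agt* (angiotensinogen) at 482 and 435 TPM and *Serpinh1* (a collagen chaperone of the endoplasmic reticulum and not an inhibitor) at 277 and 278 TPM after PBS and DT, were not past the threshold. *Serping1*, the C1 inhibitor, went from 8.79 to 18.3 TPM without passing it (log2 fold change 1.08, SE 0.25, adjusted p = 0.138 with limma). The median over the 7 tested serpins was 0.09.

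The lists of other inhibitor families had no gene past the threshold. Of 17 other cystatins, 14 had no read and 1 was tested, *Cstb*, a cystatin that stays in the cell, at 32.5 and 34.4 TPM (log2 fold change 0.06). Among 37 genes with Kunitz, Kazal, WAP or related inhibitor domains, 36 were listed and 17 tested, with a median log2 fold change of -0.03. The most abundant of these were *Aplp2* at 823 and 786 TPM and *App* at 437 and 413 TPM, membrane proteins with Kunitz-type variants.

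Proteases of the classes that such inhibitors act on form 3 lists, which also hold related genes that are not known targets. Past the threshold were *Plau*, *Reln* and *Ctss* (0.555% of all genes tested were higher and 0.159% lower). None of 34 tested genes among 49 metalloproteases passed the threshold (median log2 fold change -0.04), and 2 higher and 3 lower genes were at an unadjusted p under 0.05 in limma, as were 1576 of all 15137 genes tested. The most abundant, *Mmp14*, which *Timp2* and *Timp3* inhibit, was at 205 ± 7.15 TPM after PBS and 190 ± 18.8 TPM after DT (mean ± SD, n = 3 each), and *Adam15* was at 75.3 and 75.5 TPM. Of 15 tested serine proteases and related genes, *Plau* was higher and *Reln* lower. *Plau*, the urokinase plasminogen activator that *Serpine2* inhibits, was at 4.19, 4.98 and 4.36 TPM in PBS libraries 1, 2 and 3 and at 17.1, 12.6 and 12.5 TPM in the DT libraries (log2 fold change 1.58, SE 0.18, adjusted p = 0.00592 with limma). *Reln*, a secreted glycoprotein of the extracellular matrix, fell from 35.3 ± 4.20 to 23.2 ± 0.80 TPM (mean ± SD, n = 3 each) (log2 fold change -0.61, SE 0.09, adjusted p = 0.0231 with limma). The call on *Reln* was lost in 6 of 16 alternative analyses. *Htra1* at 2848 and 2411 TPM and *F3*, tissue factor, at 795 and 775 TPM were the most abundant of this list, neither past the threshold.

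The list of cysteine cathepsins, the protease class that cystatin C inhibits, has 11 genes and also holds *Lgmn*. Of these 11, 1 was called, *Ctss*, which fell from 73.1 ± 13.4 to 16.4 ± 2.07 TPM (mean ± SD, n = 3 each) (log2 fold change -2.14, SE 0.15, adjusted p = 0.000612 with limma). *Ctss* is also one of the 17 microglial markers, 8 of which were lower. *Ctsb* at 309 and 353 TPM and *Ctsl* at 244 and 239 TPM, the most abundant cathepsins, were not past the threshold, and the median of the list was -0.01. None of the 11 receptors and chaperones for inhibitor complexes was called (median 0.08). Among them *Lrp1*, the receptor that takes up alpha-2-macroglobulin and serpin complexes, was at 374 ± 30.5 TPM after PBS and 400.0 ± 25.8 TPM after DT (mean ± SD, n = 3 each), and *Hspa5* was at 529 and 581 TPM. Over all 9 lists, 97 of the 200 genes listed were tested, with 2 higher and 2 lower, against 0.555% higher and 0.159% lower of all genes tested. The lists were written with earlier results of these data known, so nothing is drawn from these counts.

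**Figure D5:**
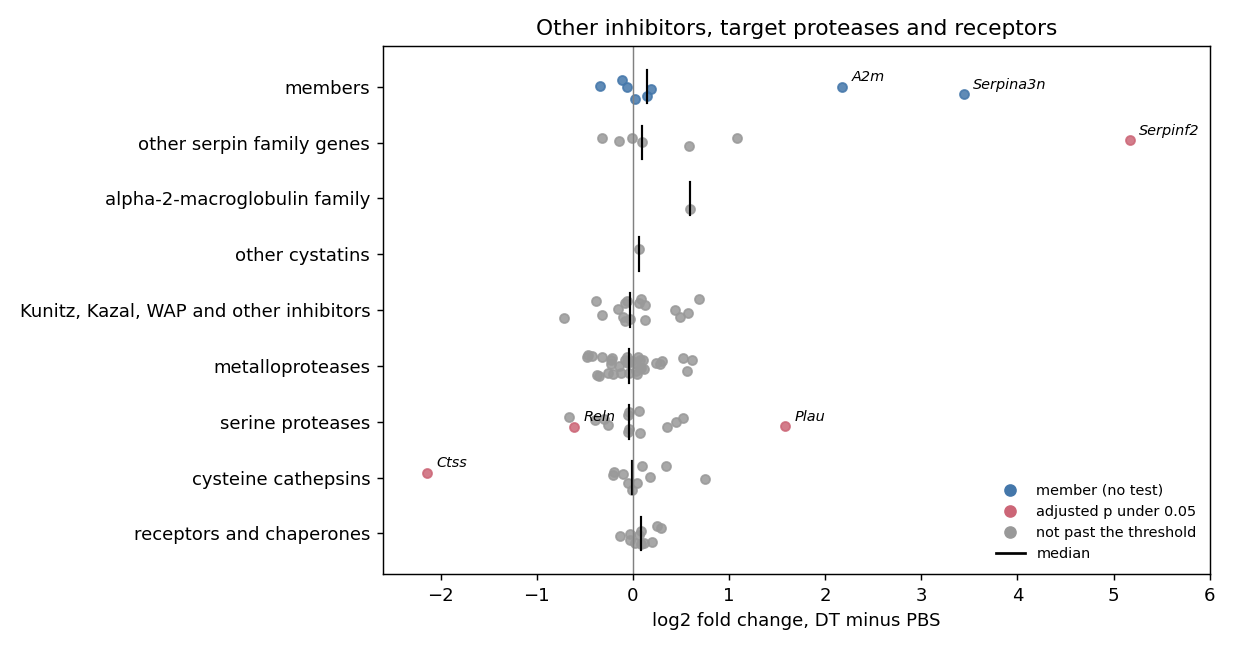
Log2 fold change on the scale of log2(CPM + 0.1) (horizontal axis) of each tested gene in the lists of other inhibitors, proteases with related genes, and clearance receptors, 1 point per gene, with a line at each list's median. *Serpinf2* (5.17) and *Plau* (1.58) are past the threshold on the higher side and *Reln* (-0.61) and *Ctss* (-2.14) on the lower, the members' line is the median of all 9, and *Timp1*, known as a bound, has no point.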

How the data were processed

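RNA of MACS-isolated hippocampal astrocytes was sequenced in 3 PBS and 3 DT libraries. According to the submitters' notes, the authors used Trim Galore 0.5.0, HISAT2 2.1.0 with mm10, bedtools 2.25.0, StringTie 1.3.5 and edgeR 3.24.3. The authors deposited CPM, a signal per scaled library size (TMM factors 0.974 to 1.02) where plain CPM had been assumed, and TPM. They also deposited p-values and q-values and the log2 fold changes of their comparison, which were not used. From the steps of the deposited CPM, 100% of values came out as whole reads within 0.1 read. Of the gene names, 27 had become dates.

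The groups were compared on log2(CPM + 0.1), for genes whose mean CPM reached 0.5, by limma 3.58.1 (R 4.3.3), two-sided and with the variance trend, with Benjamini-Hochberg adjustment over all tested genes and a threshold of 0.05. Fold changes on this scale understate those of low genes. Where no library of a group exceeded 3 reads of a gene, its fold change is a bound, and floors cover counting error only. Alternatives were pseudocounts of 0.5 and 1, no filter or one at a mean of 2 CPM, TPM in place of CPM, quantile normalization, a replicate block, no variance trend, each library left out, and edgeR 4.0.16 and DESeq2 1.42.0 on the recovered reads.

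The 9 genes and all lists were chosen with earlier results of these data known. From each list, genes past the threshold and the 2 with the highest mean TPM after PBS are named, with the 3 genes nearest in pattern to *Serpina3n*, *A2m* and *Timp1* and every *Serpina3* paralog with a read. *Serping1* and the synapsins were named after their values were seen. Coordinates are from GENCODE M21 on mm10 and promoters from RefSeq on GRCm38.p6. A comparison of the proteins was not analysed here.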

Additional observations from a re-analysis of the deposited data

How the results depend on the processing

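The log2 fold changes of *Serpina3n* (3.35 to 3.52) and *A2m* (2.08 to 2.32) kept their direction in all 16 alternatives, as did those of *Timp2*, *Timp3*, *Timp4*, *Serpine2* and *Serpinf1*, and that of *Cst3* changed sign in 1 (-0.04 to 0.08). The bound for *Timp1* on the log2 scale ranged from 4.50 (without PBS replicate 2, the deepest library) to 4.78 when each library was left out, and a mean CPM of at least 2 removed *Timp1* from the genes tested. The count of genes called higher, 84, was 35 with no variance trend, 227 with DESeq2 and 39 to 72 with a library left out, falling most without DT replicate 1 (39) and DT replicate 2 (40). The count called lower, 24, was 11 with no variance trend, 98 with DESeq2 and 9 to 20 with a library left out, with 11, 9 and 10 without PBS replicates 1, 2 and 3 and 10 without DT replicate 2. Of the 108 calls, 41 were made in every fit with a library left out. With a replicate block, 79 genes were called higher and 30 lower. Of the 9 genes, that fit called 4, *Serpina3n*, *A2m* and *Timp1* and also *Timp4* (log2 fold change -0.34, SE 0.047), again as a description only. Deviations of libraries with the same number had correlations of 0.115, 0.0105 and 0.118. PBS replicates 1 and 3 were closest to their own number. PBS replicate 2 was about as close to DT replicate 1 (0.0107) as to its own number. These correlations do not settle whether the numbers pair the libraries, and the main fit did not pair them. *Cd109* passed the threshold with DESeq2 (adjusted p = 0.0263), the only alternative of 16 in which it did. The cause of these changes was not tested. With 68 to 89 reads per DT library, *Timp1* is the gene of the 9 that depth limits most.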
